A study of Homo sapiens with 6 samples.

Results

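Axon guidance ligands and receptors, the secreted and membrane proteins that steer growing nerve fibres, were compared between 2 human breast cancer cell lines. The members were chosen by gene symbol from the Slit, Robo, netrin, netrin-G, UNC5, semaphorin, plexin, ephrin and Eph receptor families, with DCC and NEO1. The symbol rule matched 70 of the 61541 genes in the deposited table. UNC50 matched by spelling only, since it encodes a Golgi protein and no netrin receptor, so 69 guidance genes in 11 families were followed. UNC50 itself had no call. Levels are given as CPM, counts scaled to a common library total; ± marks the SD over 3 libraries for a level and the standard error for a log2 fold change. Values are listed for the parental libraries first and the MDA231-LN libraries second, each as replicates 1 to 3. Levels per kb divide by exonic length, while intron reads are counted and reads in overlapping genes are not. Orders and shares between genes are therefore approximate.

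MDA-MB-231 is a triple-negative breast carcinoma line, and its untreated cells are called parental here. MDA-MB-231-D3H2LN (MDA231-LN) is a subline obtained from Perkin Elmer, which carries luciferase and was derived from a lymph node metastasis of MDA-MB-231 cells in mice. Both lines were grown in high-glucose DMEM with 10% fetal bovine serum, and 3 bulk RNA libraries were sequenced for each. Each kind of cell is 1 line, so lymph node origin cannot be told apart from luciferase, passage and other differences between these lines. Nothing in the labels says that a line's 3 libraries were cultured separately; p-values measure the spread between these libraries, which may be technical.

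Slits signal through Robo receptors, and netrins through DCC, NEO1 and the UNC5 receptors. Semaphorins bind plexins, the class 3 semaphorins mostly together with neuropilins, and ephrins bind Eph receptor tyrosine kinases and signal in both directions between touching cells. In the nervous system these pairs attract or repel axons. In epithelia and carcinomas the same molecules are known for roles in cell sorting, adhesion, migration and vessel growth.

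Library totals ran from 16461578 to 19171017 assigned read pairs. Genes with a count numbered 17962 to 18196 in parental and 19839 to 20024 in MDA231-LN libraries. The part of this difference in the results was not tested. KRT8 and VIM, from the marker list for mesenchymal triple-negative breast carcinoma cells, were abundant in both lines. KRT8 averaged 608 and 578 CPM in the parental and MDA231-LN libraries, and VIM 1091 and 1993 CPM. Of the 11 genes on this list, 4 were called higher and 2 lower, EGFR (632 and 328 CPM) and KRT18. The comparison genes CDH1 and PGR were scarce, at 0.212 and 0.420 CPM for CDH1 and 1 and 0 counts for PGR. The comparison genes ERBB2 (90.4 and 89.8 CPM) and EPCAM (13.0 and 15.2 CPM) were not scarce and had no call. ESR1 had 9 and 54 counts and rose 5.28-fold (edgeR adjusted p = 0.00403). The neuronal marker NEFL and the glial marker S100B had no count; SNAP25 and SOX10 also had none, but they lie wholly inside other genes, where reads are not counted. The 11 neuronal markers summed to 4.94 to 5.94 CPM in parental and 6.53 to 7.54 CPM in MDA231-LN libraries, with RBFOX3 3.46-fold higher (0.565 and 1.99 CPM, edgeR adjusted p = 0.000638). The glial list summed to 175 to 193 CPM and then 79.4 to 80.2 CPM, most of it MBP. The 8 endothelial markers summed to 196 to 211 CPM in parental and 22.1 to 24.4 CPM in MDA231-LN libraries, most of it ESAM (189 and 12.1 CPM), and CDH5 had no parental count. The 7 fibroblast markers summed to 17.8 to 21.4 CPM and 19.4 to 24.1 CPM; COL3A1 went from 1 to 88 counts and LUM from 1 to 47, both called higher (edgeR adjusted p = 7.38e-07 and 4.13e-05), and PDGFRB fell 2.31-fold. The 7 leukocyte markers summed to at most 2.73 CPM in any library. ESR1, COL3A1 and LUM passed the low-count filter, given below, only through MDA231-LN libraries, so these genes had to be higher there. RBFOX3 also passed only with those libraries, so its call is not independent of the filter. The part of these markers in the results was not tested. In bulk RNA, fewer cells carrying a transcript and less of it per cell cannot be told apart.

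Of the 69 guidance genes, 65 had at least 1 count and 53 passed the low-count filter. A gene was called where its Benjamini-Hochberg adjusted p over all 14176 genes tested was under 0.05 (edgeR quasi-likelihood test). By this rule 25 guidance genes were higher and 19 were lower in MDA231-LN, and 9 had no call. Across all genes tested 62.8% were called, 31.6% higher and 31.2% lower. Past a change of at least 2-fold, 18 guidance genes (34.0% of those tested) were higher and 5 (9.43%) were lower, against 13.0% and 7.53% of all genes. Of the 53, NTN1, UNC5A, UNC5C, EFNA2 and SLIT1 passed the filter only through MDA231-LN and SEMA5A only through parental libraries, so these 6 had to differ. In the other 47, at least 1 library of each line was above the filter level. Of these, 13 were at least 2-fold higher and 4 at least 2-fold lower, where 8.79% and 6.93% of all such genes were. UNC5B, EPHA5, ROBO2 and EPHA6 reached that level in fewer than 3 libraries of their lower line. They passed only with the other line's libraries, so their calls are not independent of the filter. The median log2 fold change was 0.17 over the tested guidance genes and 0.02 over all genes, and its median size without sign was 0.79 and 0.44. The 3 MDA231-LN libraries lay above every parental library for 26 guidance genes and below for 20, beside 33.8% and 32.8% of all genes.

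**Figure D1:**
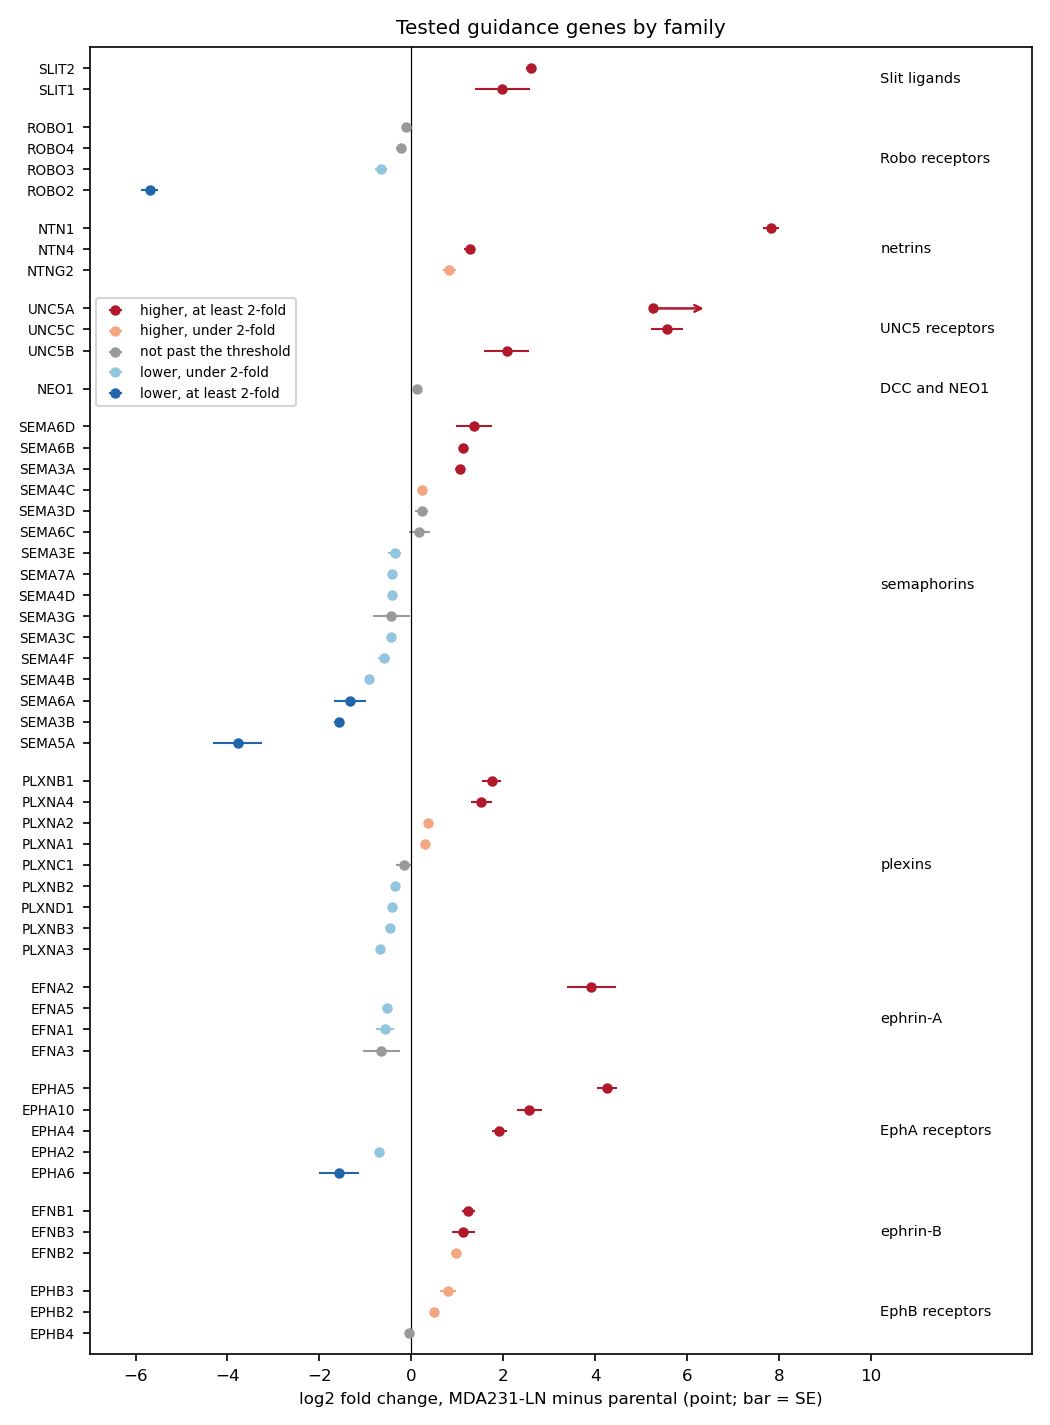
Log2 fold change (MDA231-LN minus parental, horizontal axis) of the 53 guidance genes tested, by family, with bars for the standard error and colour for the call. UNC5A has no parental count and is drawn at its lower bound with an arrow; NTN1 lies farthest to the right and ROBO2 farthest to the left.

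In the Slit and Robo families, 2 of 3 ligands were tested and rose, SLIT1 having entered the test only through MDA231-LN, and ROBO2 fell to under 1 CPM. SLIT2, a secreted repellent, stood at 9.02, 8.43 and 10.5 CPM in the parental libraries and 56.8, 58.4 and 54.8 CPM in the MDA231-LN libraries. Its rise was 6.05-fold (log2 fold change 2.60 ± 0.10, edgeR adjusted p = 1.23e-17), with no overlap between the lines. SLIT1 was far lower, at 0.305, 0.127 and 0.214 CPM and 0.973, 0.610 and 1.03 CPM, and rose 3.95-fold (log2 fold change 1.98 ± 0.60, edgeR adjusted p = 0.00535). SLIT3 had 2 and 3 counts in all and was not tested. Per kb of exon, the summed Slit level went from 0.987 ± 0.119 to 5.94 ± 0.161 CPM (SD, n = 3), and SLIT2 made up 97.4% and 98.3% of it.

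ROBO2, a Slit receptor, fell from 28.2, 30.2 and 27.2 CPM to 0.564, 0.554 and 0.514 CPM. This 51.8-fold fall (log2 fold change -5.70 ± 0.19, edgeR adjusted p = 2.92e-19) separated every library of one line from every library of the other. ROBO1, the Robo member with the highest mean level per kb, measured 60.5, 60.2 and 61.3 CPM and 55.8, 57.5 and 53.9 CPM. Its log2 fold change of -0.12 ± 0.07 did not pass the threshold (edgeR adjusted p = 0.131). ROBO3, which modulates Slit repulsion at the midline, fell from 47.8, 37.8 and 28.6 CPM to 22.6, 22.4 and 27.4 CPM, that is 1.57-fold (edgeR adjusted p = 8.50e-05). ROBO4, known from endothelium, averaged 22.2 ± 2.79 and 19.0 ± 0.819 CPM with no call, and 50.6% of its exonic bases lie inside another gene. In the parental line ROBO1 (5.58 ± 0.051 CPM per kb) and ROBO3 (5.42 ± 1.37 CPM per kb, SD, n = 3) did not differ beyond their spread, and ROBO2 stood lowest. ROBO2 held 10.9% of the summed Robo level in parental and 0.289% in MDA231-LN libraries.

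The 250 bases before the annotated start are shown for the genes that changed at least 4-fold, had an entry in RefSeq's promoter table (GRCh38.p14) and had no annotated exon in that stretch. They are SLIT2 (chr4:20251655-20251904), ROBO2 (chr3:76310630-76310879) and EFNA2 (chr19:1285623-1285872), all on the plus strand, with each CG dinucleotide in capitals.
SLIT2: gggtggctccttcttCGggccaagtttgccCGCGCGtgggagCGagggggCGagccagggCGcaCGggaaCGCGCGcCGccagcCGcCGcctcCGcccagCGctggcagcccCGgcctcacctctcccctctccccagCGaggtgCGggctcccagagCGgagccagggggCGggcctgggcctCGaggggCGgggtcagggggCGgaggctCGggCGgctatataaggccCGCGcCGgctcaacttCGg
ROBO2: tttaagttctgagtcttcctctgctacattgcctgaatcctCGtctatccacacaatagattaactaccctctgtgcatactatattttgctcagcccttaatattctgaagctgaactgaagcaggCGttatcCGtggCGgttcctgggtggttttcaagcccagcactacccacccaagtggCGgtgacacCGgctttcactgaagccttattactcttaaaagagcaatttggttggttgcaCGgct
EFNA2: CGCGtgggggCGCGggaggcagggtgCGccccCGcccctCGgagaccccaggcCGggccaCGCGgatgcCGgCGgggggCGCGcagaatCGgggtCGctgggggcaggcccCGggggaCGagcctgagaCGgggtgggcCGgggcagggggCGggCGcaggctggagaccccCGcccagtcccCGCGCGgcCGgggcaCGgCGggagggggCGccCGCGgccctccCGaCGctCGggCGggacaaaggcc
SLIT2 has 30 CG dinucleotides in this stretch and EFNA2, an ephrin described further on, has 36; 12.4% and 4.85% of the table's 35116 promoters have as many. The ROBO2 stretch has 7, which 58.9% of promoters reach, and it precedes 1 of 2 listed starts; the stretch before the other start has 27. The letters GGGCGG, searched on both strands, occur 5 times for SLIT2, 4 times for EFNA2 and 0 times for ROBO2, and in 42.6% of all promoters. The letters TATAAA occur in none of these 3 stretches and in 10.7% of all promoters. Variants of these letters were not searched, such as tatataag near the end of the SLIT2 stretch. Of the 69 guidance genes 59 had an entry, and their 91 starts had a median of 17 CG dinucleotides against 11 over all promoters.

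Of 6 netrins 3 were tested and rose in MDA231-LN, and of 4 UNC5 receptors 3 were tested and rose. NTN1, UNC5A and UNC5C entered the test only because they are high there, so they had to rise. NTN4 and NTNG2 were above the filter level in every library. UNC5B reached that level in 2 of 3 parental libraries, too few to pass without MDA231-LN. For each of these 6 genes the lines did not overlap. NTN1, the founding secreted netrin, had 4, 4 and 4 counts in the parental libraries and 1078, 939 and 1114 counts in the MDA231-LN libraries. These are 0.244, 0.254 and 0.214 CPM and 55.2, 52.0 and 57.3 CPM, a 226-fold rise (log2 fold change 7.82 ± 0.18, edgeR adjusted p = 2.44e-22). NTN4, a netrin of basement membranes, went from 9.75, 11.2 and 10.1 CPM to 24.0, 28.5 and 22.4 CPM, 2.41-fold higher (edgeR adjusted p = 1.15e-09). NTNG2, a membrane-anchored netrin-G that binds no DCC or UNC5 protein, went from 10.7, 9.13 and 13.8 CPM to 22.9, 17.6 and 19.4 CPM, 1.77-fold higher (edgeR adjusted p = 1.38e-05). The other netrins were not tested: NTN3 had 36 counts in all parental and 12 in all MDA231-LN libraries, NTNG1 had 1 and 12, and NTN5 had none. All exonic bases of NTN5 lie inside another gene, so reads there would not be counted. The summed netrin level per kb went from 4.32 ± 0.207 to 17.3 ± 0.353 CPM (SD, n = 3). NTN1 made up 0.863% of it in parental and 49.8% in MDA231-LN libraries, and NTN4 57.6% and 34.7%.

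The UNC5 receptors mediate repulsion from netrins. UNC5A had no count in any parental library and 47, 49 and 32 counts in MDA231-LN, which is at least 38.07-fold higher against 3 counts over the parental line (edgeR adjusted p = 4.22e-08). UNC5C went from 0.122, 0.190 and 0.161 CPM to 8.25, 7.37 and 7.55 CPM, a 47.1-fold rise (log2 fold change 5.56 ± 0.35, edgeR adjusted p = 2.30e-13). UNC5B stood at 0, 0.824 and 1.39 CPM and 3.43, 3.77 and 2.42 CPM and rose 4.21-fold (edgeR adjusted p = 0.000631). The UNC5B call ended with DESeq2 (adjusted p = 0.154), the highest of all alternatives, which began at 4.75e-08. Without parental replicate 3 the UNC5B rise was 7.74-fold. UNC5D had 24 and 27 counts and was not tested.

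DCC, the classical attractant receptor of netrins, had 0 counts in parental and 1 in MDA231-LN libraries. NEO1, its homologue, was by far the more abundant of that pair, at 55.5, 61.9 and 62.9 CPM and 68.1, 67.4 and 59.4 CPM. Its log2 fold change of 0.11 ± 0.08 did not pass the threshold (edgeR adjusted p = 0.206), and the lines overlapped. The summed level per kb was 0.167 ± 0.0933 CPM for UNC5 and 7.40 ± 0.492 CPM for DCC with NEO1 in parental libraries, and 1.75 ± 0.228 and 8.003 ± 0.599 CPM in MDA231-LN (SD, n = 3). Summed UNC5 transcripts thus stood below NEO1 in both lines.

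**Figure D2:**
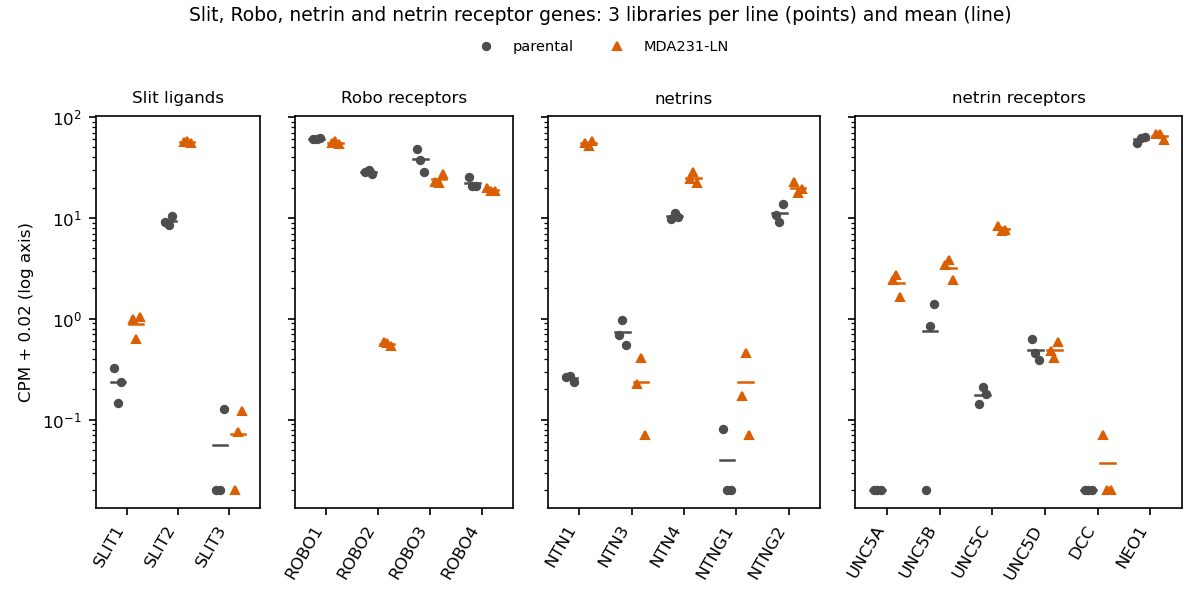
CPM plus 0.02 on a log axis for Slit, Robo, netrin and netrin receptor genes, with 1 point per library and a line at the mean of 3 libraries per line. Points on the lowest level have no count; NTN1, UNC5A and UNC5C sit higher and ROBO2 lower in all MDA231-LN libraries.

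Among the Eph receptors, EphA members changed in both directions around 1 dominant gene. EPHA2, an epithelial and carcinoma receptor for A-type ephrins, was the most abundant, at 568, 624 and 549 CPM and 365, 349.6 and 347 CPM. Every MDA231-LN library was below every parental library. EPHA2 fell 1.64-fold (log2 fold change -0.71 ± 0.06, edgeR adjusted p = 1.53e-11), and it made up 98.9% of the summed EphA level per kb in parental and 94.0% in MDA231-LN libraries. The summed EphA level per kb was 141 ± 9.01 CPM in parental and 90.6 ± 2.44 CPM in MDA231-LN libraries (SD, n = 3). EPHA6, a receptor known mainly from brain, fell from 2.19, 1.97 and 2.68 CPM to 0.512, 1.39 and 0.411 CPM, 2.98-fold (edgeR adjusted p = 0.00277). MDA231-LN replicate 2 was the highest of its line for EPHA6, and without it the fall was 4.89-fold.

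3 EphA genes rose from low levels. EPHA5 went from 0.975, 0.507 and 1.18 CPM to 17.0, 17.7 and 17.2 CPM, a 19.0-fold rise (log2 fold change 4.25 ± 0.21, edgeR adjusted p = 2.38e-15). EPHA4, which binds ephrins of both classes, went from 5.24, 3.74 and 6.69 CPM to 21.5, 19.8 and 18.1 CPM, 3.75-fold higher (edgeR adjusted p = 9.55e-11). EPHA10, whose kinase domain is thought to be inactive, went from 0.853, 1.14 and 1.45 CPM to 5.28, 7.37 and 7.97 CPM, 5.92-fold higher (edgeR adjusted p = 5.87e-09). In none of these did the lines overlap. The other EphA genes had few counts: EPHA7 had 33 in parental and 1 in MDA231-LN libraries, a count ratio per total of 37.0 with a 95% counting interval from 6.19 to 1505. EPHA3 had 30 and 8 counts, EPHA1 12 and 23, and EPHA8 8 and 1; none was tested.

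The EphB receptors moved less. EPHB4, a receptor for EFNB2 and the highest EphB gene per kb, overlapped between the lines and measured 76.7, 81.8 and 82.4 CPM and 76.3, 76.2 and 80.2 CPM, with a log2 fold change of -0.05 ± 0.07 (edgeR adjusted p = 0.523). EPHB2 rose 1.42-fold from 77.6 ± 3.14 to 109.7 ± 3.33 CPM (edgeR adjusted p = 1.31e-07), and EPHB3 rose 1.73-fold from 5.76 ± 0.999 to 9.97 ± 1.54 CPM (edgeR adjusted p = 0.000321). In both lines the order per kb was EPHB4, EPHB2, EPHB3, and EPHB4 made up 62.3% and 52.1% of the summed EphB level. EPHB1 had 12 counts, all in MDA231-LN replicate 1, and another gene covers 80.0% of its exonic bases; EPHB6 had 24 and 22 counts.

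The B-type ephrins, transmembrane ligands of EphB receptors and EPHA4, rose in each of the 3 genes. EFNB2 went from 26.1, 27.9 and 19.8 CPM to 48.1, 48.2 and 47.2 CPM, 1.95-fold higher (edgeR adjusted p = 5.08e-09), although 55.4% of its exonic bases lie inside another gene. EFNB1 went from 8.41, 10.8 and 11.2 CPM to 18.4, 24.5 and 29.1 CPM, 2.36-fold higher (edgeR adjusted p = 5.03e-08). EFNB3 went from 2.62, 2.54 and 2.03 CPM to 4.92, 6.15 and 4.68 CPM, 2.19-fold higher (edgeR adjusted p = 0.000208). The lines did not overlap for any of these 3 genes, and their summed level per kb went from 8.71 ± 0.839 to 18.4 ± 1.54 CPM (SD, n = 3).

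The A-type ephrins, anchored to the membrane by lipid, divided. EFNA2 had 0.244, 0.380 and 0 CPM in parental and 3.43, 2.66 and 3.19 CPM in MDA231-LN libraries, a 15.1-fold rise (log2 fold change 3.92 ± 0.53, edgeR adjusted p = 3.49e-07). The size rests on few parental counts: it was 25.4-fold without parental replicate 2 and 9.71-fold without parental replicate 3. EFNA5, the highest A-type ephrin per kb, fell 1.44-fold from 37.0, 33.3 and 44.2 CPM to 26.8, 24.5 and 28.1 CPM (edgeR adjusted p = 5.83e-05). EFNA1, a main ligand of EPHA2, fell 1.48-fold from 7.68, 6.66 and 8.24 CPM to 4.10, 4.71 and 6.42 CPM (edgeR adjusted p = 0.0135). The EFNA1 call ended without MDA231-LN replicate 1 or without MDA231-LN replicate 2, within a range of adjusted p from 0.00360 to 0.0899, and EFNA3 had no call. EFNA4 had no count, and another gene covers 98.7% of its exonic bases. EFNA5 held 60.9% of the summed A-type level in parental and 43.9% in MDA231-LN libraries, and EFNA2 2.07% and 30.8%.

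**Figure D3:**
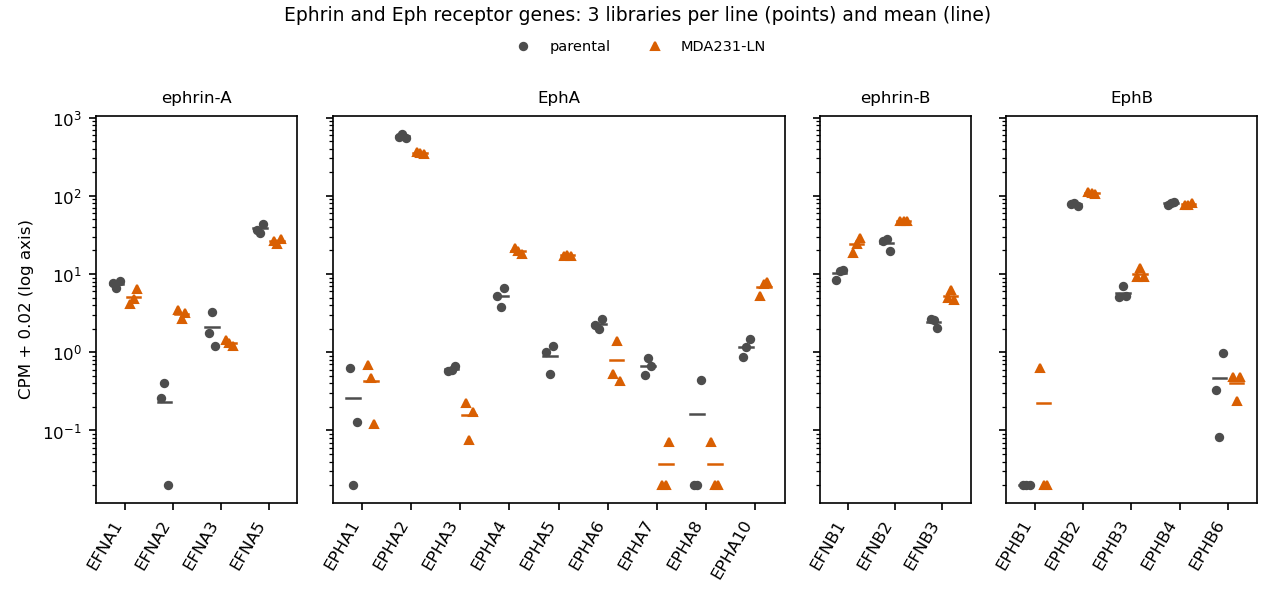
CPM plus 0.02 on a log axis for ephrin and Eph receptor genes, with 1 point per library and a line at the mean of 3 libraries per line. EPHA2 stands above the other EphA genes in both lines, while EPHA5, EPHA10, EPHA4 and EFNA2 are higher in all MDA231-LN libraries.

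The semaphorins followed here moved in both directions: of 16 tested, 4 rose, 9 fell and 3 had no call. SEMA7A, a lipid-anchored semaphorin that binds PLXNC1 and integrins, was the highest per kb, at 196, 218 and 188 CPM and 152, 147 and 153 CPM. Its lines did not overlap, and it fell 1.33-fold (edgeR adjusted p = 1.20e-06). SEMA6B, a transmembrane ligand of A-type plexins, rose 2.18-fold from 63.6, 62.0 and 58.7 CPM to 137, 119 and 146 CPM (log2 fold change 1.13 ± 0.07, edgeR adjusted p = 3.27e-13). SEMA6B went from 11.3% to 26.1% of the summed semaphorin level per kb, and SEMA7A from 42.8% to 34.2%.

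Of the secreted class 3, SEMA3A, a repellent acting through NRP1 and A-type plexins, rose 2.07-fold from 23.9, 27.2 and 26.2 CPM to 53.3, 59.5 and 47.5 CPM (edgeR adjusted p = 1.98e-10). SEMA3B, a candidate tumour suppressor on chromosome 3, fell 3.00-fold from 40.0, 38.2 and 36.3 CPM to 11.9, 11.8 and 14.4 CPM (edgeR adjusted p = 8.22e-13). SEMA3C fell from 80.7 ± 4.89 to 58.9 ± 2.66 CPM (log2 fold change -0.45 ± 0.07) and SEMA3E from 13.8 ± 2.77 to 10.7 ± 0.956 CPM (log2 fold change -0.36 ± 0.15) (edgeR adjusted p = 0.0357). SEMA3E had overlapping libraries, and its call ended in 8 of 16 alternative settings (adjusted p from 0.00371 to 0.192). SEMA3D, with a log2 fold change of 0.23 ± 0.14, and SEMA3G had no call. SEMA3C, SEMA3E, SEMA3A and SEMA3D lie within 4.44 Mb on chromosome 7, so neighbours in this cluster differed in direction.

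Among transmembrane semaphorins, SEMA5A fell 13.8-fold from 2.07, 2.92 and 1.82 CPM to 0.102, 0.166 and 0.206 CPM (log2 fold change -3.78 ± 0.53, edgeR adjusted p = 6.46e-07); another gene covers 70.3% of its exonic bases. SEMA6A fell 2.52-fold from 2.92, 1.97 and 4.76 CPM to 1.28, 1.39 and 1.18 CPM (edgeR adjusted p = 0.00154); here the covered share is 53.6%. SEMA6D rose 2.58-fold from 0.853, 0.951 and 0.803 CPM to 1.59, 2.11 and 3.03 CPM (edgeR adjusted p = 0.00377). That call ended without MDA231-LN replicate 3 (edgeR adjusted p = 0.0525), the highest of all alternatives, which began at 0.00163. The libraries of the lines did not overlap for SEMA5A, SEMA6A or SEMA6D. The SEMA4 genes tested changed under 2-fold: SEMA4B fell from 80.2 ± 3.36 to 42.3 ± 3.18 CPM, SEMA4D, which binds PLXNB1, from 48.5 ± 2.97 to 36.3 ± 1.06 CPM, and SEMA4F from 22.2 ± 3.83 to 14.7 ± 2.26 CPM. SEMA4C rose from 71.7 ± 3.08 to 84.4 ± 6.98 CPM, a call that ended without MDA231-LN replicate 3 (edgeR adjusted p = 0.0634, the highest of a range from 0.000124). SEMA6C had no call, SEMA4A had 4 and 2 counts, and SEMA5B had none. SEMA4G had none either, but all its exonic bases lie inside another gene.

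Plexins are the semaphorin receptors, and all 9 were tested: 4 rose, 4 fell and 1 had no call. PLXNA1, the highest per kb, rose 1.23-fold from 516, 475 and 483 CPM to 638, 592 and 576 CPM (edgeR adjusted p = 3.64e-05). PLXNB1 rose 3.35-fold from 3.96, 2.54 and 2.78 CPM to 9.07, 10.9 and 11.1 CPM (log2 fold change 1.74 ± 0.20, edgeR adjusted p = 1.90e-08). PLXNA4, a partner of SEMA3A signalling, rose 2.87-fold from 2.13, 2.15 and 1.87 CPM to 6.30, 5.99 and 5.40 CPM (edgeR adjusted p = 2.87e-06). For these 3 plexins the lines did not overlap. PLXNA2 rose from 39.8 ± 0.372 to 51.3 ± 2.99 CPM. PLXNB2, the second highest per kb, fell from 253 ± 6.94 to 196 ± 6.03 CPM, PLXND1, a SEMA3E receptor, from 66.7 ± 7.55 to 49.4 ± 0.565 CPM, and PLXNA3 and PLXNB3 fell under 2-fold as well. PLXNC1, the receptor of SEMA7A, had a log2 fold change of -0.15 ± 0.17 (edgeR adjusted p = 0.467). The summed plexin level per kb was 101.9 CPM in parental and 100.5 CPM in MDA231-LN libraries, and PLXNA1 moved from 44.0% to 54.7% of it and PLXNB2 from 34.2% to 27.0%.

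**Figure D4:**
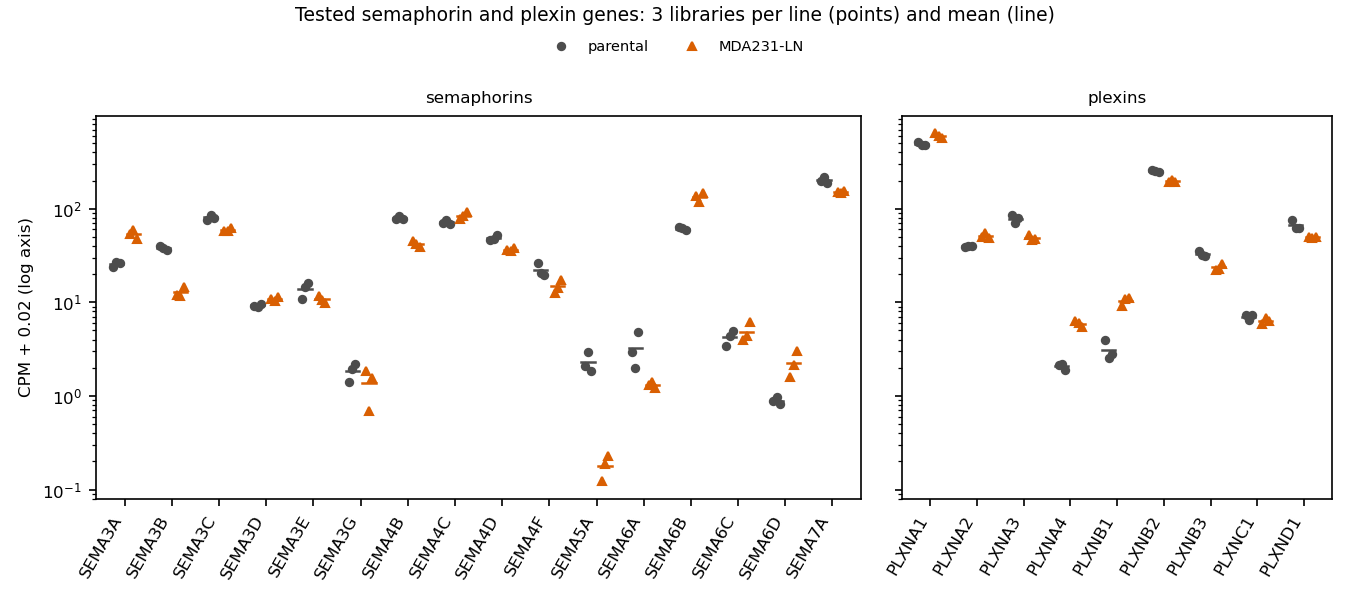
CPM plus 0.02 on a log axis for semaphorin and plexin genes, with 1 point per library and a line at the mean of 3 libraries per line. PLXNA1 and PLXNB2 stand highest among plexins in both lines; SEMA5A and SEMA3B are lower and SEMA6B and SEMA3A higher in all MDA231-LN libraries.

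Genes that work beside these receptors changed in both directions. Of 21 co-receptors and membrane partners 13 were tested: 7 rose, 5 fell and 1 had no call, with 3 at least 2-fold higher and 1 at least 2-fold lower, and a median log2 fold change of 0.24. These are 53.8%, 38.5%, 23.1% and 7.69% of those tested, beside 31.6% higher, 31.2% lower, 13.0% at least 2-fold higher and 7.53% at least 2-fold lower over all genes. RGMA, a ligand of NEO1, rose 17.7-fold from 0.417 ± 0.118 to 7.40 ± 1.44 CPM (SD, n = 3, edgeR adjusted p = 1.05e-11). CNTN1, a neural adhesion molecule, rose 17.0-fold from 0.638 ± 0.213 to 10.9 ± 0.370 CPM (SD, n = 3, edgeR adjusted p = 1.73e-13). DRAXIN, a secreted guidance protein that binds DCC and netrin, rose 5.13-fold from 0.446 to 2.34 CPM. RGMA was above the filter level in no parental library, so it had to rise. CNTN1 and DRAXIN reached that level in fewer than 3 parental libraries and passed only with MDA231-LN libraries. The count of 3 at least 2-fold higher and its share are therefore not independent of the filter. DSCAM, a netrin co-receptor, fell 5.14-fold from 4.03 to 0.776 CPM.

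Of 51 cytoplasmic effectors 44 were tested: 20 rose, 17 fell and 7 had no call, with 6 at least 2-fold higher and 1 at least 2-fold lower, and a median log2 fold change of 0.11. The called shares were 45.5% higher and 38.6% lower, beside 31.6% and 31.2% of all genes. The share at least 2-fold higher, 13.6%, was near the 13.0% of all genes, and the share at least 2-fold lower was 2.27% beside 7.53%. Of the 6 at least 2-fold higher, ABLIM3 and CFL1 have 91.3% and 62.7% of their exonic bases inside another gene. SRGAP3, also among these 6, was above the filter level in no parental library, so it had to be higher. CFL1 reached that level in fewer than 3 parental libraries and passed only with MDA231-LN libraries. The count of 6 and its share are therefore not independent of the filter. TIAM1, a Rac exchange factor acting below Eph receptors, rose 5.80-fold from 8.01 ± 2.13 to 46.9 ± 6.45 CPM (SD, n = 3, edgeR adjusted p = 1.06e-14). EVL, an actin regulator of the Ena/VASP family, rose 2.88-fold from 23.3 to 67.0 CPM, and DPYSL3, a collapsin response mediator, 3.20-fold from 2.67 to 8.47 CPM. INPPL1, the lipid phosphatase that binds EPHA2, fell 3.82-fold from 272 ± 8.18 to 71.2 ± 0.0715 CPM (SD, n = 3, edgeR adjusted p = 4.54e-20). Its log2 fold change was -1.93, and the other tested genes of its 10-Mb window had a median of -1.47. For TIAM1, EVL and DPYSL3 that median was 0.09, 0.57 and -0.17. The part of these neighbours was not tested.

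Each guidance gene was also set beside the median log2 fold change of the other tested genes within its 10-Mb window, with windows laid end to end along each chromosome. For NTN1 (chr17:9021510-9244000, GRCh38) that median was 0.00 over 146 genes, against 7.82 ± 0.18 for the gene itself. For EPHA5 (chr4:65319563-65670495) the median was 0.06 over 7 genes, for UNC5C (chr4:95162504-95549206) 0.44 over 17 genes, and for SLIT2 (chr4:20251905-20620561) 0.38 over 18 genes. All 3 of these genes on chromosome 4 were far above the medians of their windows. ROBO2 (chr3:75906695-77649964) fell within a window whose other 11 genes had a median of -0.71, and ROBO1, which lies in the same window, had no call where the median without it was -1.35. SEMA5A (chr5:9035033-9546075) fell where its 40 neighbours had a median of 0.75, and EFNB1 (chrX:68829021-68842160) rose where 14 neighbours had a median of -0.92.

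Other guidance genes stood in windows that were themselves lower or higher. ROBO3, EFNA5 and EFNA1 fell in windows with medians of -0.84, -0.96 and -0.97, and ESAM, which lies 0.103 Mb from ROBO3 on chromosome 11, fell from 189 to 12.1 CPM. PLXNA4 rose in a window with a median of 0.95. The fit was repeated with the median of all tested genes of a window, the guidance gene included, subtracted; this median can differ from that of the other genes. PLXNA4 then had a log2 fold change of 0.46 and no call (edgeR adjusted p = 0.102, the highest of a range from 3.35e-09). In that fit 29 guidance genes were higher and 11 lower, in place of 25 and 19. The median over all genes was 0.0 there, and the shares of all genes called higher or lower were not counted. The calls of SEMA6A, SEMA4F and PLXNA3 ended there too (edgeR adjusted p = 0.0853, 0.195 and 0.134). EPHB4 gained a call as lower, with a log2 fold change of -0.74, while SEMA6C (1.14), NEO1 (0.61), ROBO1 (0.90) and ROBO4 (0.59) gained one as higher and EFNA5 (0.42) turned from lower to higher. The part of the neighbours in each result was not tested.

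**Figure D5:**
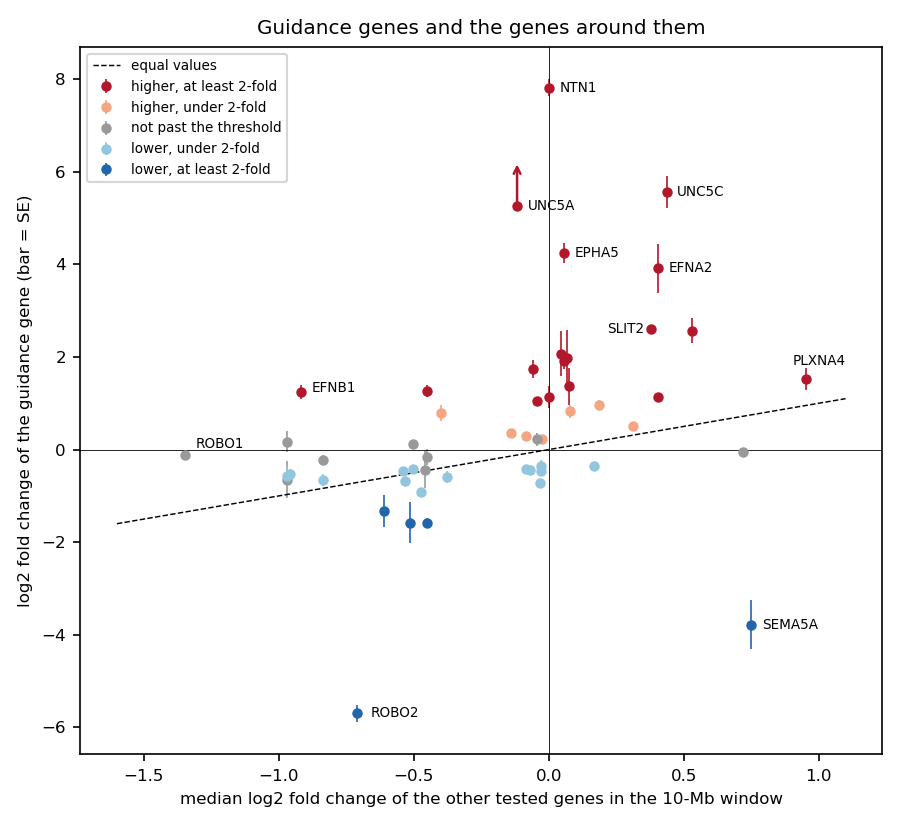
Log2 fold change of each guidance gene (vertical axis, bar = standard error) against the median log2 fold change of the other tested genes in its 10-Mb window (horizontal axis), with the dashed line at equal values. NTN1, UNC5C, EPHA5 and EFNA2 lie far above the line and ROBO2 and SEMA5A far below it; UNC5A is drawn at its lower bound.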

How the data were processed

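RNA was taken from 3 libraries each of parental MDA-MB-231 and MDA231-LN cells and read as pairs of 150 bases, per the labels. The deposited values are whole counts per gene from featureCounts 2.0.1 in paired mode over whole gene bodies of Ensembl 105 (GRCh38), per the file headers, so introns count, strand was not used, and pairs in overlapping genes went to none. STAR and DESeq2 are named in the submitters' processing notes without a version. All else was computed here from those counts, with no other count column in the table left unused.

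Symbols came from the reference gene names (61369 of 61541 genes matched), and exon lengths and overlaps from GENCODE 29. Guidance genes, partner lists and markers were chosen with earlier results of these data known, and 1 gene of these families is not reported here. Counts were filtered with filterByExpr (minimum count 10), scaled by TMM and tested with edgeR 4.0.16 (quasi-likelihood, MDA231-LN minus parental, Benjamini-Hochberg over 14176 genes); CPM uses TMM-scaled totals. The method was tested on simulated data first. Alternatives used limma 3.58.1 and DESeq2 1.42.0, other scalings and filters, each library left out, and genes inside others left out. Values in every library are given for genes called at least 2-fold without overlap and for the highest gene per kb of each family; a few further genes were named after their values were seen, and up to 4 genes with the smallest adjusted p at 2-fold from each partner list.

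Within a line, libraries differed by a chi-square of 3.73 to 8.47 per degree of freedom, and between lines by 84.1 to 98.4, so none was a repeat of another. Counting limits (3 counts, 95% intervals) cover counting error only; 3 counts over a line are 0.0590 CPM in parental and 0.0526 CPM in MDA231-LN.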

Additional observations from a re-analysis of the deposited data

How the results depend on the processing

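Over 16 alternative settings, 31 of the 44 called guidance genes kept direction and call in every setting that tested them, as did 19 of the 23 called at least 2-fold. EFNB2, SEMA5A and SLIT1, 3 of the 31, were tested in 15 settings. Of the other called genes, 12 lost the call in at least 1 setting and EFNA5 was called in the opposite direction in 1. With the median of the 10-Mb window, the gene itself included, subtracted, the lower guidance genes numbered 11 in place of 19. Lower effectors numbered 11 in place of 17. The higher share of guidance calls was 72.5% in place of 56.8%, and that share over all genes was not counted in this fit. The cause was not tested beyond the subtraction itself. The sign turned there for EFNA1 (log2 fold change 0.40, adjusted p 0.0899), ROBO1 (0.90, 2.94e-11), EFNA5 (0.42, 0.00105), PLXNB3 (0.066, 0.605), ROBO3 (0.16, 0.310), ROBO4 (0.59, 6.51e-05) and SEMA7A (0.086, 0.240), all by edgeR. Without genes over 50% inside another gene, 3 guidance genes were at least 2-fold lower in place of 5, since SEMA5A and SEMA6A left the test. Upper-quartile scaling moved the median of all genes from 0.02 to 0.13 on the log2 scale, gave 27 higher and 18 lower guidance genes, added calls for NEO1 and SEMA3D and ended that of SEMA3E. Leaving out each library gave 23 to 25 higher and 19 to 21 lower guidance genes, 17 to 19 at least 2-fold higher and 5 to 7 at least 2-fold lower. The replicate block gave 25 higher and 19 lower, the same counts as without it. Same-numbered libraries had deviation correlations of -0.0526 to 0.00241, and other pairs between the lines -0.0437 to 0.0457. With 3 libraries per line these values cannot show whether same-numbered libraries share a batch. Depth limits genes under about 10 counts in a library: 16 guidance genes were not tested. For EFNA4, NTN5 and SEMA4G, with no count, overlap with other genes and not depth sets the limit.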

Other observations

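Some partners of the guidance receptors, chosen after their values were seen, moved under 2-fold. NRP1 and NRP2, the neuropilins that hold class 3 semaphorins on plexins, rose from 448 ± 28.2 to 547 ± 2.09 CPM and from 36.4 ± 1.47 to 45.1 ± 2.46 CPM (SD, n = 3, edgeR adjusted p = 4.05e-05 and 0.00201). FLRT2, a membrane ligand of UNC5 receptors, fell from 44.0 ± 3.91 to 30.4 ± 0.557 CPM (SD, n = 3, edgeR adjusted p = 7.52e-06). DPYSL2, a collapsin response mediator like DPYSL3, fell from 251 ± 29.1 to 139.7 ± 4.46 CPM (SD, n = 3, edgeR adjusted p = 2.75e-11), so these relatives differed in direction.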
